A study of Homo sapiens with 40 samples.

Results

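The 4 RNA libraries of BEAS-2B cells given vilanterol together with the PDE4 inhibitor RNO were compared with the 4 libraries given RNO alone. They were chosen by their treatment labels and make up 8 of the 40 libraries of the series. The Vilanterol + RNO cells had received vilanterol at 100 nM and RNO (roflumilast N-oxide) at 1 µM for 2 h, and the RNO cells RNO at 1 µM for the same time. Both groups therefore carried the PDE4 inhibitor, and the difference between them is what the β2-adrenoceptor agonist changed on top of the inhibitor. Of 15788 genes in the deposited table, 12591 reached a mean of 1 TPM across the 40 libraries and were tested. BEAS-2B is an immortalised human bronchial epithelial line. The cells had been grown to confluence and kept without serum overnight, and 12 further libraries served as comparisons: 4 given ONO-AE1-329 (ONO, an agonist of the prostaglandin receptor EP4) at 1 µM with RNO, 4 given vilanterol alone and 4 given vehicle. Nothing in the labels says that replicates came from separate cultures, so p-values measure the spread between these libraries, which may be technical.

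Vilanterol is a long-acting inhaled bronchodilator. The β2-adrenoceptor couples through the G protein Gs to adenylyl cyclase, which makes cAMP. cAMP activates protein kinase A, which phosphorylates the transcription factor CREB, and CREB bound to cAMP response elements (CREs) raises early genes such as those of the NR4A receptors. Phosphodiesterases of the PDE4 family break cAMP down, and roflumilast is a PDE4 inhibitor given in chronic obstructive pulmonary disease. EP4 also couples to Gs.

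Values are TPM (transcript abundance per length and library size) that the authors adjusted further between libraries, so levels can be compared between genes. Library totals over the 40 libraries lay between 956888 and 1091466, and MIR6723 and MIR4461, the highest entries, took 30.7 to 33.9% of them. The sequencing depth is unknown. Vehicle replicate 3 stood farthest from its group mean (SD over genes of 0.2085 log2) and enters the comparison with RNO only through the shared estimate of the spread. The labelled epithelial origin was checked against marker genes. KRT8 and KRT18, keratins of simple epithelia, were well expressed, KRT8 at 338 TPM with vilanterol and RNO and 361 TPM with RNO and KRT18 at 269 TPM with vilanterol and RNO and 289 TPM with RNO, whereas EPCAM, CDH1 and CLDN4 were under a mean of 1 TPM. KRT5, KRT14 and TP63 were not analysed here. The summed level of 11 fibroblast and mesenchymal markers was 2054 to 2123 TPM in Vilanterol + RNO libraries and 1960 to 2105 TPM in RNO libraries. All 4 endothelial markers in the table were under a mean of 1 TPM.

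With RNO present in both groups, vilanterol raised 1043 genes (8.28% of those tested) and lowered 914 (7.26%), 1957 in all (15.5%). With a term for the replicate number added to the fit (a replicate block), 1572 were higher and 1686 lower. The counts of list members below come from the fit without it. The large changes were increases. At least 2-fold on the log2(TPM + 1) scale, 116 genes were higher (0.921%) and 5 were lower (0.0397%). The 5 were TXNIP, FOSL1, EGR1, KLF10 and RGS4. A gene is said to have risen or fallen where limma's adjusted p was under 0.05 over all 12591 genes. Each count of list members below is to be read against the shares over all genes, 8.28% higher and 7.26% lower. The lists were chosen with earlier results of these data known, so each count describes its list and is not a test. The libraries of the 2 groups did not overlap in 2222 genes (17.6%), of which 1640 were called (13%), and in 112 of the 116. The exceptions were RDH10, SNORA6, SNORA62 and SNORD77. The median log2 difference over all genes was -0.0082. When libraries were rescaled to equal totals after removal of the 2 highest entries, an alternative added after the data were seen, 810 genes were higher and 1210 lower, so 40.1% of calls were higher against 53.3%. In bulk RNA, fewer cells of a type and less RNA per cell cannot be told apart.

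The NR4A orphan nuclear receptors, early transcription factors downstream of CREB, rose in 3 of 3 cases. NR4A3 had 71.9, 72.5, 61.05 and 70.2 TPM in the Vilanterol + RNO libraries, against 1.34, 3.26, 3.69 and 2.29 TPM in the RNO libraries. It was the gene with the largest log2 difference (26.04-fold, log2 difference 4.31 ± 0.18, adjusted p = 4e-19), with every Vilanterol + RNO library far above every RNO library. NR4A2 had 30.9, 25.2, 17.6 and 22.6 TPM in the Vilanterol + RNO libraries, against 0.774, 1.35, 2.04 and 1.14 TPM in the RNO libraries (18.1-fold, log2 difference 3.43 ± 0.18, adjusted p = 8e-17). NR4A1, which was already expressed under RNO, had 107, 98.7, 73.2 and 88.7 TPM in the Vilanterol + RNO libraries, against 9.36, 16.6, 19.03 and 13.6 TPM in the RNO libraries (6.27-fold, log2 difference 2.60 ± 0.21, adjusted p = 1.1e-11). In both genes the groups were well apart, and within the Vilanterol + RNO group replicate 1 was highest and replicate 3 lowest.

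**Figure D1:**
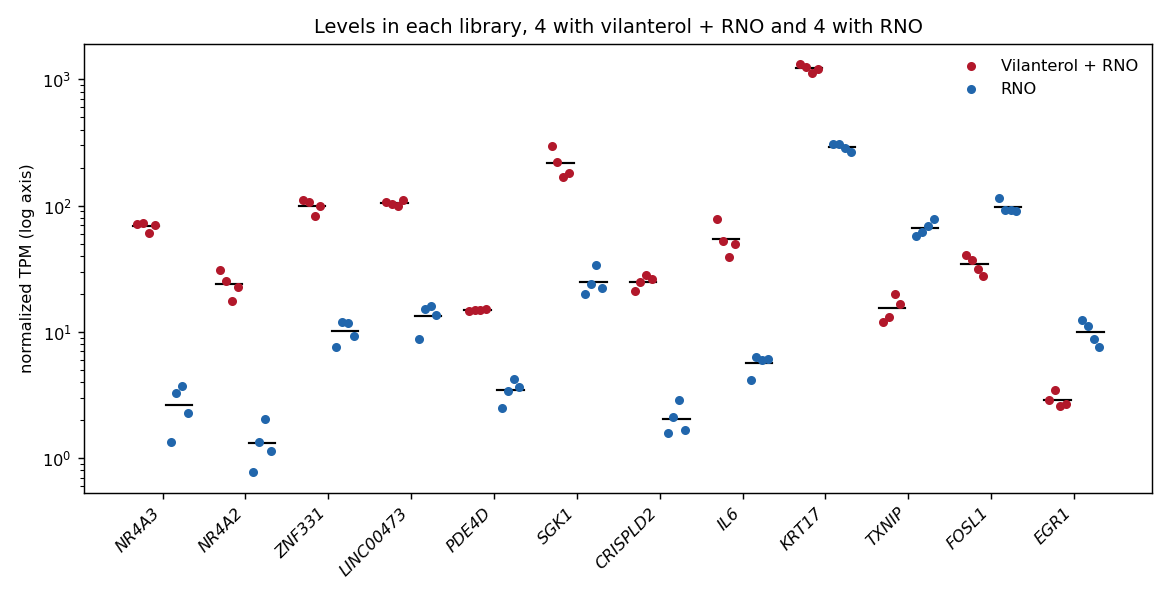
Levels of 12 genes in each library, in TPM on a log axis, with Vilanterol + RNO libraries in red left of RNO libraries in blue and the group mean as a line. NR4A3 sits at 61.0 to 72.5 TPM in the red libraries and 1.34 to 3.69 TPM in the blue ones, while TXNIP, FOSL1 and EGR1 sit lower in every red library.

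Genes known to respond to cAMP and CREB rose in 14 of 21 tested cases and fell in none, against 8.28% and 7.26% of all genes, and the list's median log2 difference was 0.69 against -0.0082. The zinc finger gene ZNF331 had 112, 107, 82.2 and 99.8 TPM in the Vilanterol + RNO libraries, against 7.62, 11.9, 11.8 and 9.27 TPM in the RNO libraries (9.86-fold, log2 difference 3.19 ± 0.14, adjusted p = 1.2e-18). LINC00473, a long non-coding RNA known as a CREB target, had 107, 103, 99.7 and 109.9 TPM in the Vilanterol + RNO libraries, against 8.76, 15.1, 15.98 and 13.6 TPM in the RNO libraries (7.85-fold, log2 difference 2.91 ± 0.18, adjusted p = 3.7e-15). The groups were separate for both, and LINC00473 varied little among the treated libraries. RGS2, a GTPase activator that shortens G protein signals, had 108, 62.7, 54.5 and 74.6 TPM in the Vilanterol + RNO libraries, against 8.47, 11.6, 13.1 and 12.4 TPM in the RNO libraries (6.58-fold, log2 difference 2.58 ± 0.22, adjusted p = 2.2e-11). Its level in replicate 1 was well above the other treated libraries. Smaller rises were seen for the EGF receptor ligand AREG (10.1 TPM with vilanterol and RNO, 2.87 TPM with RNO), the phosphatase DUSP1 (210.4 TPM with vilanterol and RNO, 74.5 TPM with RNO), the neurotrophin BDNF (40.1 TPM with vilanterol and RNO, 15.3 TPM with RNO), the clock gene PER1 (26.99 TPM with vilanterol and RNO, 10.8 TPM with RNO), the AP-1 subunit FOSB (11.7 TPM with vilanterol and RNO, 4.33 TPM with RNO) and the salt-inducible kinase SIK2 (15.2 TPM with vilanterol and RNO, 9.02 TPM with RNO). CREM, a CREB relative with repressor isoforms, rose 1.54-fold and CITED2, which binds the coactivators of CREB, 1.37-fold. The joint entry LOC102724428/SIK1, which holds SIK1 and a near-identical copy, rose 5.04-fold, and reads of these copies cannot be told apart. CREB1, CREBBP and the CRTC coactivators were among the 7 that were not called.

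Promoter sequence of this group is shown because CREB is known to bind the letters TGACGTCA. In the 250 bases before the RefSeq start (GRCh38.p14), 9430 of the tested genes had an entry, and each was searched on both strands for TGACGTCA and for its core TGACG, which TGACGTCA contains on both strands. The authors' processing notes name GRCh37, so the starts may differ from those they used. TGACGTCA stood in 3.02% of tested genes, in 42 of 798 that rose (5.26%), in 18 of 696 that fell (2.59%) and in 2 of the 14 cAMP and CREB genes that rose, AREG and DUSP1. The core TGACG stood in 30.8% of tested genes, in 276 of 798 that rose (34.6%) and in 193 of 696 that fell (27.7%). Among genes at least 2-fold higher it stood in 33 of 82 (40.2%), and among the 20 genes with the largest rise in 9 of 16. NR4A3 holds it 4 times in 120 bases upstream of its start (chr9:99821765-99821884, plus strand). AREG (chr4:74445053-74445096, plus strand) and DUSP1 (chr5:172771295-172771338, minus strand) hold the full element. The sequences read 5′ to 3′ on the gene's strand, with the motif on either strand in capitals.
NR4A3: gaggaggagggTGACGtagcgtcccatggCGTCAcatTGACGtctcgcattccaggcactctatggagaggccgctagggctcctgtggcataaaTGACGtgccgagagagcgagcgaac
AREG: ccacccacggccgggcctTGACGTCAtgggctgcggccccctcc
DUSP1: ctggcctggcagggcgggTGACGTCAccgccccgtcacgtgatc
A match describes the letters in this window and is not a measured binding site.

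The genes that make, sense and break down cAMP were mostly not called, with PDE4D and PDE4B as the leading exceptions. PDE4D had 14.7, 14.9, 15.04 and 15.1 TPM in the Vilanterol + RNO libraries, against 2.51, 3.38, 4.26 and 3.65 TPM in the RNO libraries (4.32-fold, log2 difference 1.85 ± 0.10, adjusted p = 2.3e-16), and its 4 treated libraries lay within a narrow range. PDE4B had 4.57, 3.46, 3.74 and 3.86 TPM in the Vilanterol + RNO libraries, against 1.97, 2.27, 1.76 and 1.59 TPM in the RNO libraries (2.06-fold, log2 difference 0.76 ± 0.10, adjusted p = 1.5e-07), also without overlap. These were the 2 of 7 tested phosphodiesterases that rose, and none fell. PDE4A averaged 1.70 ± 0.273 TPM with vilanterol and RNO and 1.77 ± 0.237 TPM with RNO (adjusted p = 0.87), and the 95% interval of its log2 difference was -0.22 to 0.15. PDE4C did not reach the mean needed for testing, at 0.502, 0.467, 0.414 and 0.577 TPM with vilanterol and RNO and 0.585, 0.306, 0.361 and 0.437 TPM with RNO. PTGER4, which encodes EP4, averaged 1.14 ± 0.236 TPM with vilanterol and RNO and 1.39 ± 0.165 TPM with RNO (interval -0.34 to 0.01, adjusted p = 0.23). Of 5 adenylyl cyclases none was called. Of 14 receptors and G proteins of the pathway, GNAI2 was called at 1.07-fold, with overlapping groups, and the call was lost without RNO replicate 4. Of 14 genes of protein kinase A, EPAC and anchoring proteins 3 rose. AKAP12, a scaffold that binds protein kinase A at the β2-adrenoceptor, had 104, 131, 141 and 129 TPM in the Vilanterol + RNO libraries, against 36.4, 43.96, 50.7 and 42.1 TPM in the RNO libraries (2.92-fold, log2 difference 1.52 ± 0.12, adjusted p = 2.5e-12), and AKAP1 rose 1.29-fold. AKAP5 was at 4.12 TPM with vilanterol and RNO and 3.09 TPM with RNO, and its call was lost without Vilanterol + RNO replicate 3 or 4 or RNO replicate 1. Among 11 RGS genes RGS2 rose and RGS4 and RGS7 fell, RGS4 at 0.29-fold (1.09 ± 0.284 TPM with vilanterol and RNO and 3.74 ± 0.619 TPM with RNO).

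Immediate early genes, whose transcription follows receptor stimulation within minutes, went in both directions. Of 12 EGR factors and AP-1 subunits 4 rose and 3 fell. EGR1, a target of ERK signalling, had 2.88, 3.49, 2.56 and 2.67 TPM in the Vilanterol + RNO libraries, against 12.5, 11.1, 8.77 and 7.60 TPM in the RNO libraries (0.29-fold, log2 difference -1.48 ± 0.16, adjusted p = 3.1e-09). FOSL1 had 40.9, 37.1, 31.7 and 27.7 TPM in the Vilanterol + RNO libraries, against 114, 92.6, 91.7 and 91.3 TPM in the RNO libraries (0.353-fold, log2 difference -1.48 ± 0.13, adjusted p = 2e-11), and JUN averaged 36.4 ± 1.56 TPM with vilanterol and RNO and 70.01 ± 5.62 TPM with RNO (0.519-fold, log2 difference -0.92 ± 0.07, adjusted p = 2.1e-12). All treated libraries were below all RNO libraries in these 3 genes, and RNO replicate 1 was the highest of its group in each. The AP-1 partners ATF3 (46.2 TPM with vilanterol and RNO, 18.4 TPM with RNO), JUNB (25.8 TPM with vilanterol and RNO, 11.2 TPM with RNO), FOSB and FOSL2 (87.1 TPM with vilanterol and RNO, 53.3 TPM with RNO) rose by contrast. FOS averaged 2.47 ± 0.509 TPM with vilanterol and RNO and 1.70 ± 0.572 TPM with RNO, with overlapping groups (interval 0.06 to 0.69, adjusted p = 0.11). It was called in 3 of 19 alternative settings, among them the fit without RNO replicate 2. Of 18 other immediate early genes 3 rose and 4 fell. MYC rose 1.46-fold, and KLF10 averaged 13.6 ± 2.87 TPM with vilanterol and RNO and 35.3 ± 8.76 TPM with RNO (0.386-fold, log2 difference -1.30 ± 0.28, adjusted p = 0.00081). GADD45A, a stress and growth arrest gene, fell to 52.6 TPM with vilanterol and RNO, against 77.5 TPM with RNO.

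Phosphatases and inhibitors of the MAP kinase pathway split in the same list, with 6 of 13 higher and 4 lower. DUSP1 had 244, 218, 172 and 208 TPM in the Vilanterol + RNO libraries, against 61.7, 85.97, 77.7 and 72.5 TPM in the RNO libraries (2.83-fold, log2 difference 1.48 ± 0.14, adjusted p = 2.4e-10). DUSP8 (17.2 TPM with vilanterol and RNO, 8.21 TPM with RNO) and DUSP10 (2.74 TPM with vilanterol and RNO, 1.10 TPM with RNO), which act on stress-activated kinases, rose without overlap between the groups. DUSP6, an ERK phosphatase that ERK itself induces, fell to 2.14 TPM with vilanterol and RNO, against 4.02 TPM with RNO (0.533-fold, log2 difference -0.68 ± 0.10, adjusted p = 3.2e-06), and SPRY4 fell to 0.574-fold. DUSP5 was at 46.4 TPM with vilanterol and RNO and 44.6 TPM with RNO (interval -0.17 to 0.29). Without Vilanterol + RNO replicate 2, 3 members of the list were called higher.

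Of 12 cytokines and chemokines 5 rose and 1 fell. IL6, a cytokine released by airway epithelium, had 77.7, 52.2, 38.9 and 50.1 TPM in the Vilanterol + RNO libraries, against 4.19, 6.32, 6.02 and 6.10 TPM in the RNO libraries (9.67-fold, log2 difference 3.03 ± 0.21, adjusted p = 2e-13). Replicate 1 was the highest of the treated libraries and the lowest of the RNO libraries. IL11 had 192, 192, 182 and 178 TPM in the Vilanterol + RNO libraries, against 23.96, 43.2, 56.3 and 33.6 TPM in the RNO libraries (4.74-fold, log2 difference 2.28 ± 0.20, adjusted p = 7.7e-11). The chemokines CCL2 (222 TPM with vilanterol and RNO, 104 TPM with RNO) and CXCL2 (2.65 TPM with vilanterol and RNO, 0.48 TPM with RNO) rose as well, and IL16 fell to 0.565-fold. IL24 was at 2.09 TPM with vilanterol and RNO and 1.13 TPM with RNO, and its call was lost without Vilanterol + RNO replicate 4. CXCL1 overlapped between the groups (interval -0.00 to 0.58, adjusted p = 0.2). Genes listed as negative regulators of inflammatory signalling rose in 10 of 22 cases and fell in none, with a median log2 difference of 0.23. Being listed does not show that a gene acts as a restraint in these cells. SOCS3, an inhibitor of cytokine receptor signalling, had 53.2, 50.8, 55.3 and 57.8 TPM in the Vilanterol + RNO libraries, against 15.8, 16.2, 18.5 and 14.7 TPM in the RNO libraries (3.33-fold, log2 difference 1.68 ± 0.11, adjusted p = 2.9e-14). CD200, a ligand that restrains myeloid cells, averaged 14.6 ± 0.928 TPM with vilanterol and RNO and 2.41 ± 0.426 TPM with RNO (6.05-fold, log2 difference 2.20 ± 0.12, adjusted p = 2.8e-16). KLF4 also rose (4.72 TPM with vilanterol and RNO, 1.40 TPM with RNO). So did the checkpoint ligand CD274 (5.68 TPM with vilanterol and RNO, 2.25 TPM with RNO). TNFAIP3 was higher as well (2.25 TPM with vilanterol and RNO, 1.33 TPM with RNO). NFKBIZ, on the same list, rose (4.50 TPM with vilanterol and RNO, 2.32 TPM with RNO) and is not read here as a restraint. NFKBIA was 1.27-fold, a call lost without Vilanterol + RNO replicate 4 or RNO replicate 1. No protein was measured. Of 20 interferon-stimulated genes 1 rose, ISG20 (4.85 TPM with vilanterol and RNO, 2.09 TPM with RNO). IFIT3 was the 1 called lower, a call lost without Vilanterol + RNO replicate 1, 2 or 4 or RNO replicate 1 or 4. Neither count exceeded the share over all genes.

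Of 16 genes known to respond to glucocorticoids, 11 rose and none fell, although the labels of these groups name no glucocorticoid. DUSP1, PER1 and RGS2 are also on the cAMP and CREB list. CRISPLD2, a secreted protein that limits responses to endotoxin, had 21.1, 25.04, 27.97 and 26.03 TPM in the Vilanterol + RNO libraries, against 1.57, 2.10, 2.87 and 1.66 TPM in the RNO libraries (12.2-fold, log2 difference 3.11 ± 0.16, adjusted p = 1.5e-16). SGK1, a kinase that regulates ion transport, had 297, 223, 169 and 182 TPM in the Vilanterol + RNO libraries, against 19.98, 23.9, 33.7 and 22.4 TPM in the RNO libraries (8.71-fold, log2 difference 3.06 ± 0.19, adjusted p = 9.3e-15). Both genes were several times higher in every treated library than in any RNO library. The transcription factors CEBPD (101 TPM with vilanterol and RNO, 35.2 TPM with RNO) and KLF9 (12.6 TPM with vilanterol and RNO, 5.18 TPM with RNO) rose too. CEBPD varied more than the others, with 73.5, 97.7, 107 and 127 TPM in the Vilanterol + RNO libraries and 19.3, 32.7, 47.5 and 41.4 TPM in the RNO libraries. TSC22D3 was at 4.61 TPM with vilanterol and RNO and 3.35 TPM with RNO with overlapping groups, and its call was lost without Vilanterol + RNO replicate 1 or RNO replicate 2 or 3. Of 16 clock genes 4 rose and 1 fell, the repressor NFIL3 at 25.7 TPM with vilanterol and RNO and 12.9 TPM with RNO and CIART at 3.68 TPM with vilanterol and RNO and 6.11 TPM with RNO, and the count of higher genes was 2 without Vilanterol + RNO replicate 2 or RNO replicate 4. Of 17 KLF and C/EBP factors 5 rose and 3 fell.

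Genes of glucose handling moved in opposite directions, 9 of 21 higher and 3 lower. TXNIP, which binds thioredoxin and reduces glucose uptake, had 12.03, 13.2, 19.8 and 16.6 TPM in the Vilanterol + RNO libraries, against 57.02, 62.2, 68.9 and 78.1 TPM in the RNO libraries (0.232-fold, log2 difference -2.06 ± 0.15, adjusted p = 9.5e-13), the largest decrease among called genes without overlap. Its relative ARRDC4 averaged 5.54 ± 0.261 TPM with vilanterol and RNO and 11.2 ± 1.05 TPM with RNO (0.493-fold, log2 difference -0.90 ± 0.09, adjusted p = 8.9e-10). ARRDC3, another arrestin-like protein, which acts in β2-adrenoceptor trafficking, rose to 23.1 TPM with vilanterol and RNO, against 11.1 TPM with RNO. The glucose transporter SLC2A3 had 62.9, 87.9, 83.2 and 81.9 TPM in the Vilanterol + RNO libraries, against 17.2, 22.6, 27.7 and 24.04 TPM in the RNO libraries (3.45-fold, log2 difference 1.75 ± 0.16, adjusted p = 1.5e-10), with the groups well apart. PPP1R3C and PPP1R3B, which target a phosphatase to glycogen, rose 3.76-fold and 2.94-fold. PFKFB3, an activator of glycolysis, rose 1.88-fold.

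**Figure D2:**
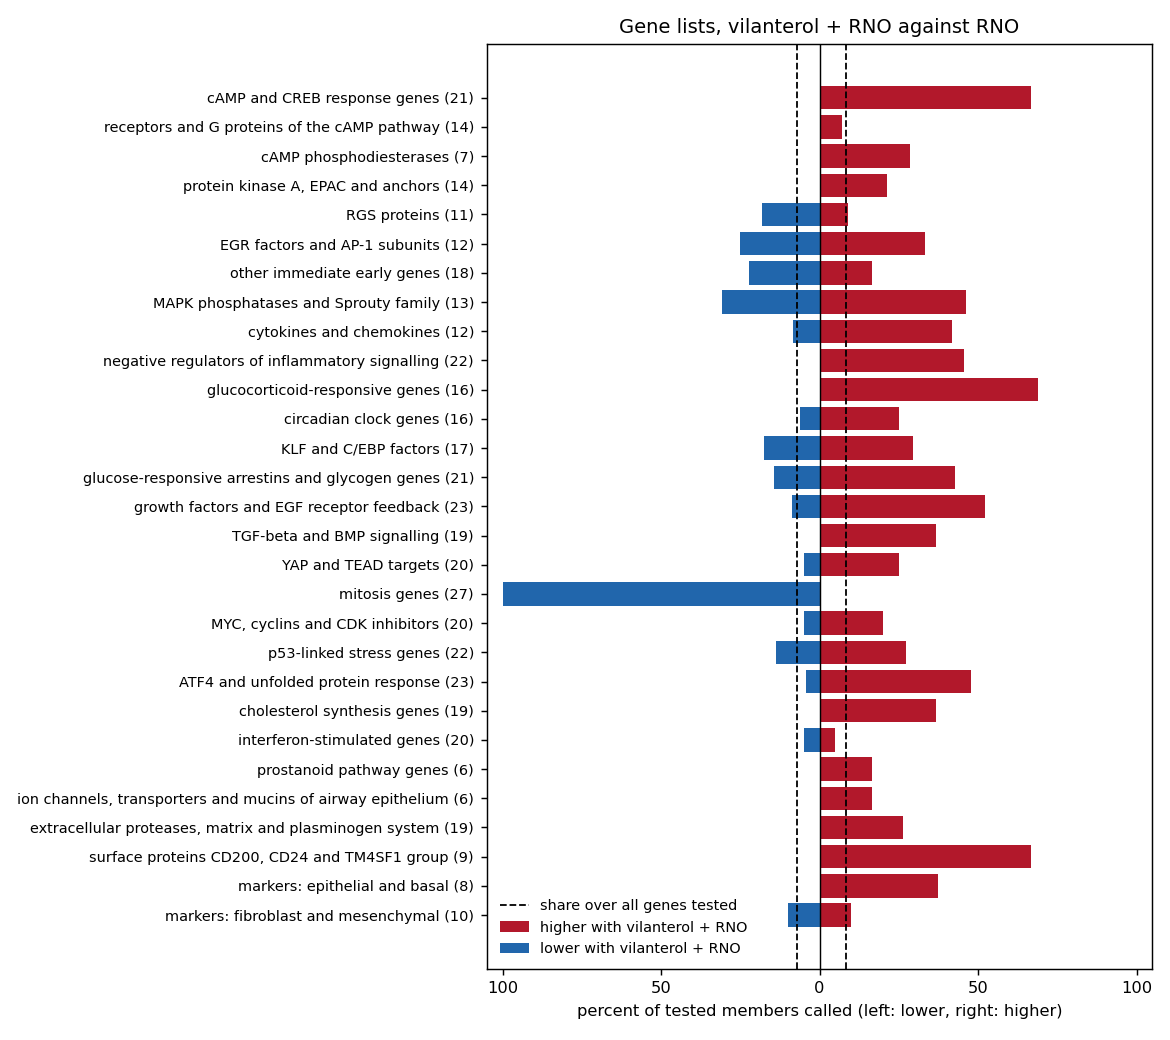
Share of tested members of each gene list that were called higher (red, to the right) or lower (blue, to the left) with Vilanterol + RNO against RNO, in percent, with the number of tested members in brackets and the shares over all genes tested as dashed lines at 8.28% and 7.26%. The mitosis list has blue only, with 27 of 27 members lower, and the cAMP and CREB list red only, with 14 of 21.

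Of 23 growth factors and genes of EGF receptor feedback 12 rose and 2 fell. AREG had 6.39, 12.3, 10.7 and 11.03 TPM in the Vilanterol + RNO libraries, against 2.19, 2.79, 3.64 and 2.85 TPM in the RNO libraries (3.52-fold, adjusted p = 2.4e-07), with replicate 1 the lowest of both groups. BDNF had 37.8, 42.7, 37.3 and 42.7 TPM in the Vilanterol + RNO libraries, against 12.2, 18.2, 16.3 and 14.5 TPM in the RNO libraries (2.62-fold, log2 difference 1.35 ± 0.10, adjusted p = 2e-12). LRIG1, which lowers EGF receptor levels, rose 1.83-fold and the lymphatic growth factor VEGFC 1.38-fold, while PDGFB (0.628-fold) and FGF5 (0.694-fold) fell. HBEGF was at 38.9 TPM with vilanterol and RNO and 28.3 TPM with RNO, and its call was lost without Vilanterol + RNO replicate 1, 2 or 4 or RNO replicate 1, 3 or 4. In the TGF-β and BMP list 7 of 19 rose and none fell. The activin antagonist FST (20.5 TPM with vilanterol and RNO, 7.63 TPM with RNO), the BMP antagonist GREM1 (256 TPM with vilanterol and RNO, 164 TPM with RNO), the SMAD corepressor TGIF1 (71.5 TPM with vilanterol and RNO, 28.02 TPM with RNO) and the BMP target ID3 (16.2 TPM with vilanterol and RNO, 6.05 TPM with RNO) were among them, each without overlap. Of 20 YAP and TEAD targets 5 rose and 1 fell, led by LATS2, a kinase that restrains YAP, with 127, 134, 123 and 138 TPM in the Vilanterol + RNO libraries, against 40.8, 46.9, 46.9 and 45.8 TPM in the RNO libraries (2.90-fold, log2 difference 1.51 ± 0.08, adjusted p = 4.1e-16). CYR61, the gene called lower, was not called without Vilanterol + RNO replicate 3 or RNO replicate 1 or 2.

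Stress and metabolic lists rose in part. Of 23 ATF4 and unfolded protein response genes 11 rose and 1 fell. The amino acid transporters SLC7A5 and SLC38A2 were among those that rose. SLC7A5 averaged 499.7 ± 29.8 TPM with vilanterol and RNO and 213 ± 26.00 TPM with RNO, and SLC38A2 averaged 375 ± 28.7 TPM with vilanterol and RNO and 170.0 ± 17.3 TPM with RNO. DDIT4, an inhibitor of mTORC1, rose 2.35-fold and HERPUD1, a gene of endoplasmic reticulum protein degradation, 1.73-fold, while DDIT3, the CHOP factor of the same response, fell to 0.771-fold. ATF4 and HSPA5 were among the 11 not called. Of 19 cholesterol synthesis genes 7 rose and none fell, among them INSIG1 (1.44-fold), which restrains sterol synthesis, and 1 fell when Vilanterol + RNO replicate 1 was left out. Of 22 p53-linked genes 6 rose and 3 fell. PHLDA3 rose 1.84-fold, PMAIP1 1.71-fold and the CDK inhibitor CDKN1A 1.45-fold, whereas MDM2 and BAX were not called.

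Among 9 surface proteins 6 rose and none fell. The list was named for CD200, CD24 and TM4SF1 and chosen with earlier results known. Its count therefore describes the list and is not a test. TM4SF1, a tetraspanin-like protein linked to cell migration, had 373, 348, 384 and 352 TPM in the Vilanterol + RNO libraries, against 48.04, 60.97, 75.7 and 52.1 TPM in the RNO libraries (6.16-fold, log2 difference 2.62 ± 0.10, adjusted p = 9.4e-20). CD24, an adhesion protein, averaged 103 ± 16.99 TPM with vilanterol and RNO and 19.3 ± 4.31 TPM with RNO (5.30-fold, log2 difference 2.36 ± 0.17, adjusted p = 6.4e-13), and CD55, a complement regulator, rose 1.55-fold. KRT17, a keratin of basal and wounded epithelium, had the highest level among the genes that rose, with 1314, 1253, 1122 and 1213 TPM in the Vilanterol + RNO libraries, against 308, 308, 287 and 268 TPM in the RNO libraries (4.18-fold, log2 difference 2.06 ± 0.10, adjusted p = 4.2e-18). Of 8 tested epithelial markers KRT17, KRT7 (1.40-fold) and CLDN1 rose. The summed level of the epithelial list was 1813 to 2118 TPM in Vilanterol + RNO libraries and 913.7 to 1127 TPM in RNO libraries, a difference carried by KRT17. Without KRT17 the sum was 629.5 to 804.2 TPM in Vilanterol + RNO libraries and 645.6 to 818.9 TPM in RNO libraries, and KRT8 and KRT18 were not called. Of 10 tested fibroblast and mesenchymal markers 1 rose and 1 fell, near the shares over all genes. Of 19 genes of extracellular proteolysis 5 rose, among them PLAUR (36.7 TPM with vilanterol and RNO, 18.1 TPM with RNO) and PLAT (49.3 TPM with vilanterol and RNO, 30.5 TPM with RNO), which bind and generate plasmin activity. Other large rises were those of RHOB, a small GTPase (179 TPM with vilanterol and RNO, 31.1 TPM with RNO), PLPP3, a lipid phosphatase (47.2 TPM with vilanterol and RNO, 9.96 TPM with RNO), GAS1 (57.4 TPM with vilanterol and RNO, 14.3 TPM with RNO), the transcription factor TBX3 (10.7 TPM with vilanterol and RNO, 2.03 TPM with RNO) and AVPI1 (191 TPM with vilanterol and RNO, 50.5 TPM with RNO). PTGES, the terminal enzyme of prostaglandin E2 synthesis, rose 1.88-fold.

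The listed genes of mitosis fell by small amounts. Of 27 tested genes 27 were lower and none higher, against 7.26% of all genes, with a median log2 difference of -0.28 (range -0.83 to -0.13) and levels at 0.55 to 0.907 of those with RNO. The highest adjusted p was 0.029. The groups did not overlap in 23 of the 27, much as in 1640 of all 1957 called genes. HJURP, the chaperone that places the centromere histone CENPA, had 22.6, 21.1, 21.2 and 20.3 TPM in the Vilanterol + RNO libraries, against 42.1, 39.2, 34.8 and 39.01 TPM in the RNO libraries (0.55-fold, log2 difference -0.83 ± 0.05, adjusted p = 2.9e-14). CDCA8, a subunit of the chromosomal passenger complex, had 30.99, 26.1, 27.1 and 24.1 TPM in the Vilanterol + RNO libraries, against 52.3, 48.5, 44.5 and 45.9 TPM in the RNO libraries (0.566-fold, log2 difference -0.80 ± 0.08, adjusted p = 3.9e-10). PSRC1, a spindle protein, averaged 16.8 ± 0.789 TPM with vilanterol and RNO and 26.6 ± 0.695 TPM with RNO (0.633-fold, log2 difference -0.63 ± 0.05, adjusted p = 1.5e-12). These 3 stood out, and in each the treated libraries were below all RNO libraries. The mitotic kinases PLK1 (55.2 TPM with vilanterol and RNO, 79.2 TPM with RNO) and AURKA (83.5 TPM with vilanterol and RNO, 109.7 TPM with RNO) and cyclin CCNB1 (151 TPM with vilanterol and RNO, 194 TPM with RNO) fell less, and TOP2A reached 0.888-fold. KIF18A, the smallest difference, had overlapping groups and was not called without RNO replicate 4. The number of members called lower was 21 without Vilanterol + RNO replicate 4. TRIM59, BORA, CCNF, FAM83D and HYLS1 were among the 15 genes with the largest decreases, BORA, an activator of PLK1 in mitosis, at 4.14 TPM with vilanterol and RNO and 7.71 TPM with RNO, and CCNF, cyclin F, at 5.47 TPM with vilanterol and RNO and 9.54 TPM with RNO. Of 20 cyclins, CDK inhibitors and MYC-related genes 4 rose and 1 fell, with CDKN1B at 72.9 TPM with vilanterol and RNO and 84.8 TPM with RNO.

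**Figure D3:**
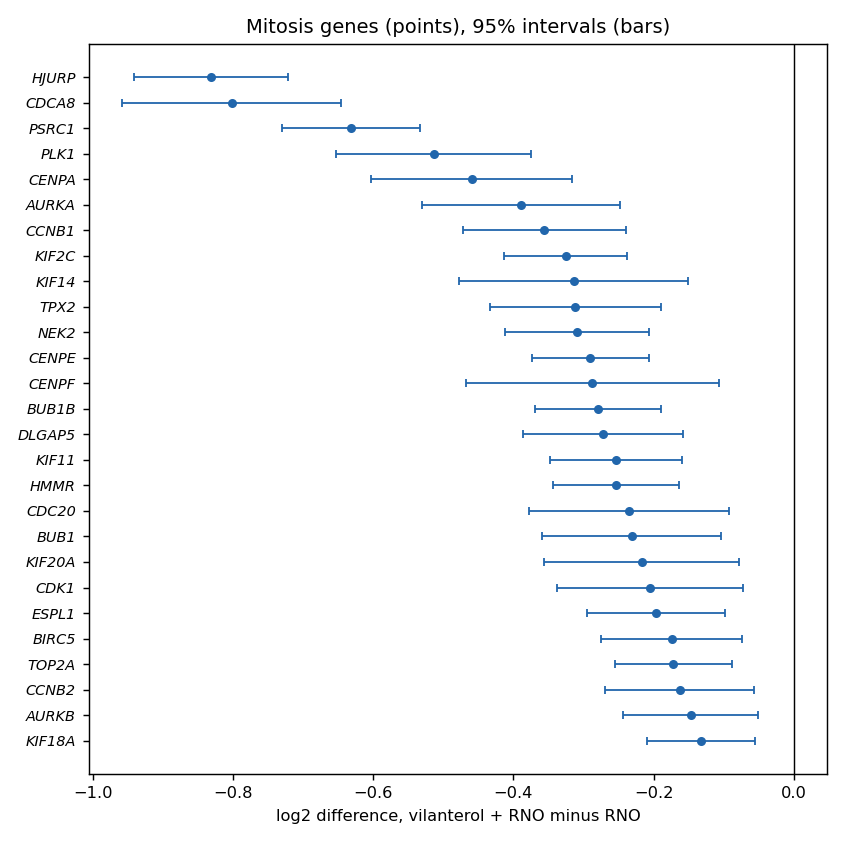
Log2 difference of the 27 mitosis genes, Vilanterol + RNO minus RNO, with 95% intervals as bars. All 27 points lie below 0, from -0.83 for HJURP to -0.13 for KIF18A.

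Promoters of the mitosis group are shown because the letters TTTGAA, the cell cycle genes homology region (CHR), are known from promoters of genes expressed in G2 and M phase. On either strand within the 250 bases before the start, TTTGAA stood in 14 of 24 mitosis genes with an entry (58.3%), in 8.02% of tested genes, in 100 of 696 genes that fell (14.4%) and in 49 of 798 that rose (6.14%). CCAAT stood in 21 of the 24 (87.5%) and in 35.6% of tested genes. The mitosis list was written for its function, with earlier results of these data known, so its promoters describe the list and not the response. HJURP (chr2:233854623-233854664, minus strand), CDCA8 (chr1:37692475-37692515, plus strand), PLK1 (chr16:23678842-23678883, plus strand) and CENPA (chr2:26786020-26786055, plus strand) read as follows in RefSeq GRCh38.p14, 5′ to 3′ on the gene's strand, with TTTGAA in capitals.
HJURP: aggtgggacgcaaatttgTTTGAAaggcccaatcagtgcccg
CDCA8: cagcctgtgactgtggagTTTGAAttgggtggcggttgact
PLK1: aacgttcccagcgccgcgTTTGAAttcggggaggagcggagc
CENPA: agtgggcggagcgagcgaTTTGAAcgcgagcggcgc
The element lay close to the start in CDCA8, PLK1 and CENPA and farther upstream in HJURP.

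Whether vilanterol acted differently with and without RNO was asked with the interaction, the difference between Vilanterol + RNO minus RNO and vilanterol minus vehicle. In limma's test it called 1 of 12591 genes (0.00794%), and 726 had an unadjusted p under 0.05 (5.77%). With a replicate block it called 31, PPM1D and PDE4B among them. The gene called without the block was PPM1D, a phosphatase induced by p53, with 26.8, 26.5, 24.8 and 26.5 TPM in the Vilanterol + RNO libraries, against 17.3, 18.03, 18.2 and 19.5 TPM in the RNO libraries. It had 27.4, 27.9, 26.3 and 28.8 TPM with vilanterol alone and 15.3, 15.7, 15.5 and 15.6 TPM with vehicle. Vilanterol raised it in both settings, by less with RNO (interaction -0.29, interval -0.40 to -0.19, adjusted p = 0.0364). The call was lost when Vilanterol + RNO replicate 2, 3 or 4, RNO replicate 2, 3 or 4, vilanterol replicate 2 or 4, or any single vehicle library was left out (adjusted p 0.0505 to 0.198). It was also lost with equal totals (adjusted p = 0.0941) and with only the groups of the comparison fitted (adjusted p = 0.884). The 95% interval of the interaction lay within ±1 log2 for 98.3% of tested genes and for 102 of the 116 genes at least 2-fold higher. NR4A3 was at 68.9 TPM with vilanterol and RNO against 2.65 TPM with RNO, and at 73.3 TPM with vilanterol alone against 1.35 TPM with vehicle (interaction interval -1.20 to -0.18). PDE4D was at 14.9 TPM with vilanterol and RNO against 3.45 TPM with RNO, and at 15.1 TPM with vilanterol alone against 2.183 TPM with vehicle (interaction interval -0.78 to -0.21). Neither the NR4A3 nor the PDE4D interaction was called, with or without the block, and the intervals are not adjusted for the number of genes. PDE4B was at 3.91 TPM with vilanterol and RNO against 1.90 TPM with RNO, and at 3.81 TPM with vilanterol alone against 0.99 TPM with vehicle (interaction -0.51, interval -0.78 to -0.24, adjusted p = 0.5, and 0.0165 with the replicate block).

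EGR1 was at 2.90 TPM with vilanterol and RNO against 10.00 TPM with RNO, and at 3.48 TPM with vilanterol alone against 19.03 TPM with vehicle (interaction interval 0.21 to 1.11). Its interaction was not called, with or without the replicate block. Across the 12591 genes the log2 difference with RNO and that without it, which come from separate libraries, had Pearson r = 0.83 and a Spearman rank correlation of 0.618 as a description over genes, which are not independent. Vilanterol raised 1220 genes (9.69%) and lowered 1003 (7.97%) against vehicle. Of genes raised, 806 were shared, 77.3% of the 1043 with RNO and 66.1% of the 1220 without. Of genes lowered, 512 were shared, 56% of the 914 with RNO and 51% of the 1003 without. A gene called in 1 setting and not in the other is not shown to differ by this count. In the mitosis list 27 of 27 genes fell with RNO and 20 without it, and the interaction of its members lay between -0.2 and 0.1 log2, with none called.

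**Figure D4:**
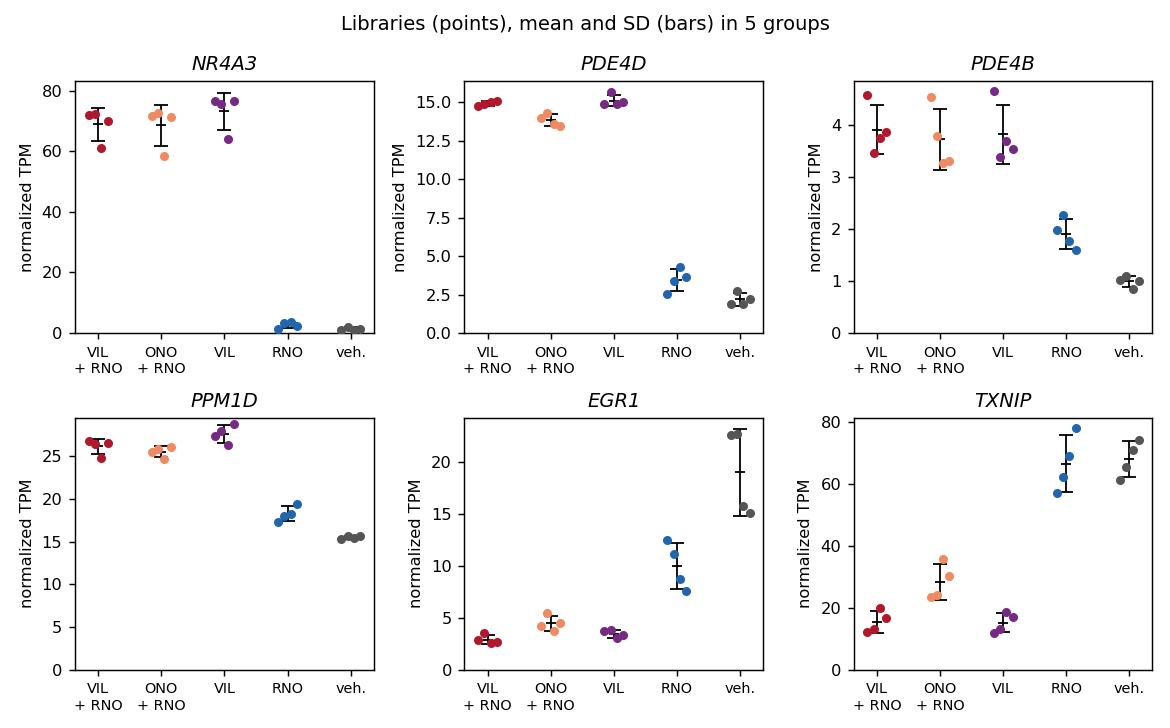
Levels of 6 genes in the 4 libraries (points) of each of 5 groups, in TPM from 0, with the mean and SD as bars. NR4A3 and PDE4D are high in the 3 groups with an agonist, and TXNIP is at 15.4 TPM with vilanterol and RNO, 28.4 TPM with ONO and RNO, and 15.1 TPM with vilanterol alone.

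Vilanterol + RNO was also set directly against ONO 1 µM + RNO, in which another Gs-coupled receptor is stimulated over the same inhibitor. In limma's test no gene was called (0%), 306 had an unadjusted p under 0.05 (2.43%), and other settings called none or TXNIP alone apart from the replicate block, which called 4. Same-numbered libraries of these groups deviated together, a hint from the data and not the design, so blocked values are given beside the unblocked ones. The 95% interval of the difference lay within ±0.5 log2 for 12136 of the 12591 genes (96.4%) and for 93 of the 116 genes at least 2-fold higher (80.2%). NR4A3 was at 68.9 ± 5.34 TPM with vilanterol and RNO and 68.6 ± 6.72 TPM with ONO and RNO (interval -0.35 to 0.37), and HJURP at 21.3 TPM with vilanterol and RNO and 21.3 TPM with ONO and RNO (interval -0.11 to 0.11). These intervals bound the difference and do not show that the agonists act alike.

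TXNIP was the gene nearest to a call. It had 12.03, 13.2, 19.8 and 16.6 TPM in the Vilanterol + RNO libraries, against 23.5, 24.1, 35.7 and 30.3 TPM in the ONO + RNO libraries. The groups did not overlap (log2 difference -0.84, interval -1.16 to -0.53, adjusted p = 0.055). With the replicate block it was called (adjusted p = 7.66e-09). It was also called with equal totals, a pseudocount of 0.1, a mean of at least 5, library weights, or equal totals without the 2 highest entries (adjusted p 0.0156 to 0.0494), and without Vilanterol + RNO replicate 3 (adjusted p = 0.0107) or ONO + RNO replicate 1 (adjusted p = 0.0399). FST was at 20.5 TPM with vilanterol and RNO and 15.2 TPM with ONO and RNO, and was called with the block (log2 difference 0.41, adjusted p = 9.64e-05), as were ADNP-AS1 and CDK17. ARRDC4, EGR1 and FOSL1 had intervals below 0 (-0.48 to -0.11, -0.80 to -0.17 and -0.57 to -0.06) and were not called. IL6 was at 54.7 ± 16.4 TPM with vilanterol and RNO and 40.99 ± 11.9 TPM with ONO and RNO (interval -0.02 to 0.84).

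**Figure D5:**
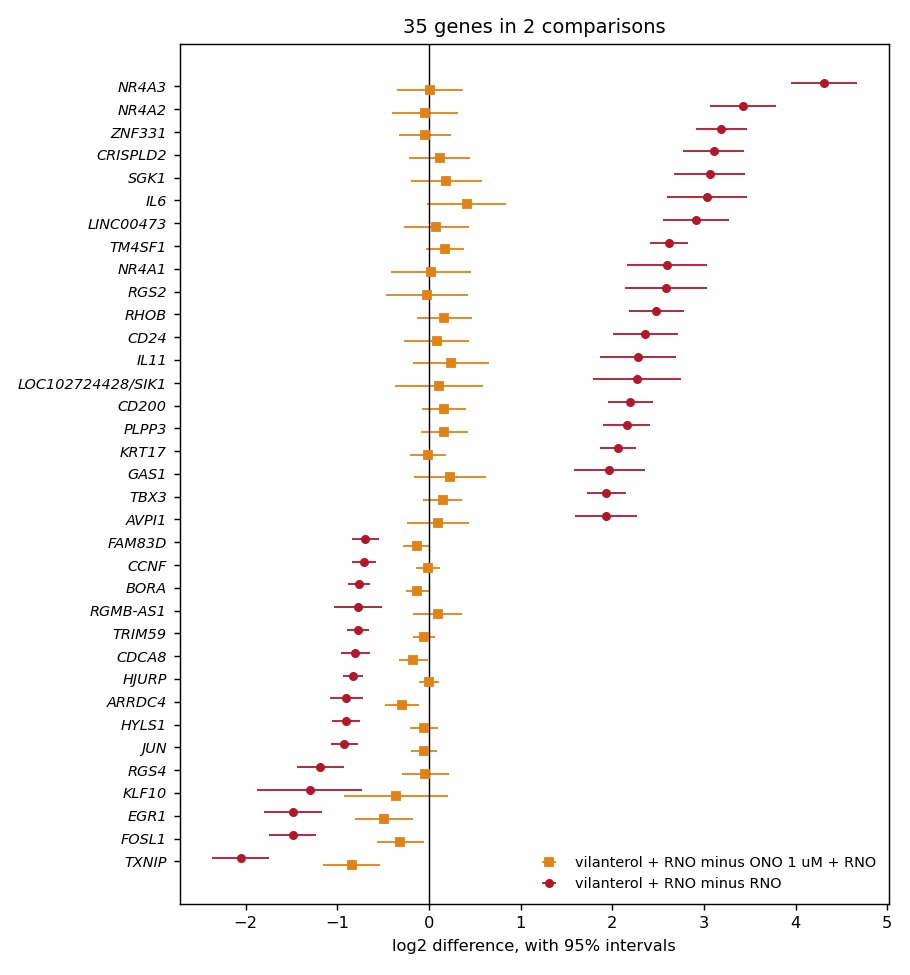
Log2 difference of the 20 highest and 15 lowest genes for Vilanterol + RNO minus RNO (red circles) and for Vilanterol + RNO minus ONO 1 µM + RNO (orange squares), with 95% intervals as bars. The red points were chosen for their size, and the orange points lie between -0.84 for TXNIP and 0.41 for IL6, with EGR1 next to TXNIP at -0.49.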

How the data were processed

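RNA was measured in 40 libraries of BEAS-2B cells, prepared as directional poly(A) libraries and sequenced on a NextSeq 500 across 2 kits, per the labels' protocols, which do not say which library went with which kit. The submitters' processing notes name bcl2fastq 2.18.0.12, kallisto and sleuth and the builds GRCh37 and hg19. No version of kallisto or sleuth is given in the sources used here. Per gene symbol, the authors deposited a normalised signal, TPM adjusted between samples, with unequal column totals. TPM had been assumed when the tests were set, and the test on a log scale suits both. Read counts were not used here, so the depth of the libraries is unknown and counting error carries no interval.

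Values were transformed to log2(TPM + 1). The 12591 of 15788 genes with a mean of at least 1 over all libraries were fitted with 1 mean per group over 40 libraries (30 residual degrees of freedom) in limma 3.58.1, R 4.3.3, with the data.table package (version 1.17.8), moderated variances and an intensity trend, tested on simulated data. Tests were two-sided, and the Benjamini-Hochberg adjusted p over all genes tested had to be under 0.05 for a call. Each fold divides the Vilanterol + RNO mean in TPM by the mean it is set against, log2 differences are given ± SE, and levels are mean ± SD of 4 libraries, in replicate order where each is given. The log2 scale understates changes of low genes.

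Same-numbered Vilanterol + RNO and ONO + RNO libraries deviated together from their group means (r 0.117 to 0.404 across genes in 4 pairs), so the blocked values stand beside that comparison. Replicate numbers come from the sample titles.

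The genes and the 35 lists were chosen with earlier results of these data known. Named genes were the 20 highest and 15 lowest called genes without overlap, list members, called genes of the other comparisons, and PTGER4 and the PDE4 genes. A gene that rule also named is not reported here. Lists share members. None of 11 mitochondrially encoded genes was analysed here, and of the ciliated, secretory and leukocyte markers 1 each was tested and not called. Of the 15788 symbols, 14214 matched current gene names, 1080 RefSeq symbols or synonyms, and 494 neither. No coordinates of the authors' build are given.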

Additional observations from a re-analysis of the deposited data

Results flagged for a closer look

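Among 133 genes named in the text or lists, 266 groups of 4 libraries were examined for a library far from the other 3, and 7 were found, where chance gives about 1 in 20 groups. RNO replicate 1 accounted for 3 of them. IL6 in that library was at 4.19 TPM, with the other RNO libraries at 6.02 to 6.32 TPM. FOSL1 was at 114 TPM, with the others at 91.3 to 92.6 TPM. AKAP5 was at 2.35 TPM, with the others at 3.26 to 3.4 TPM. In RNO replicate 4, LRIG1 was at 11.7 TPM, with the others at 13.3 to 13.6 TPM. Among Vilanterol + RNO libraries, PPM1D was lowest in replicate 3 at 24.8 TPM, with the others at 26.5 to 26.8 TPM, IL16 was highest in replicate 4 at 1.22 TPM, with the others at 0.936 to 0.945 TPM, and PPP1R3C was highest in replicate 1 at 26.3 TPM, with the others at 20.6 to 21.3 TPM.

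The effect of vilanterol on PPM1D differed with and without RNO by -0.29 log2 in limma's interaction test. The call was lost in 15 of 27 alternative settings, with adjusted p = 0.884 where only the groups of the comparison were fitted.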

How the results depend on the processing

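Genes called between Vilanterol + RNO and RNO numbered 1549 to 2310 under the alternatives without a replicate term. Leaving out 1 library of the comparison gave 1684 to 1817 genes (906 to 1003 higher, 765 to 836 lower), and leaving out vehicle replicate 3 gave 2274. With a replicate block 3258 genes were called, 1572 higher and 1686 lower. The numbers did not meet the condition for pairing here, since same-numbered libraries correlated at 0.032 to 0.405 with 1 pair under 0.1. The labels do not settle whether the numbers mark pairs, so both counts are given. Same-numbered Vilanterol + RNO libraries correlated at 0.21 to 0.537 with vilanterol alone and at 0.14 to 0.28 with vehicle. Each Vilanterol + RNO library correlated best with its own number, a hint from the data and not the design. Interaction calls, which also rest on the RNO libraries, numbered 0 with equal totals, with only the groups of the comparison fitted and with equal totals without the 2 highest entries, 31 with the block (PPM1D at adjusted p = 0.00121, PDE4B at 0.0165), and 0 to 2 without 1 library. Against ONO + RNO 1 gene, TXNIP, was called with equal totals, a pseudocount of 0.1, a mean of at least 5, library weights, or equal totals without the 2 highest entries, 4 with the block, and 0 to 1 without 1 library. Of 123 named genes called, 109 were called the same way in every setting. Without 1 library, the log2 difference of PDE4A lay between -0.0862 and 0.0209 (above 0 without RNO replicate 1, and at 0.0208 without Vilanterol + RNO replicate 4), uncalled in each. The cause of these changes was not tested. The unknown depth limits what can be said of low genes.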
